A study of Canis lupus with 20 samples.

Results

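NR2F1, TOX, IRX5, GATA6 and MEF2C encode transcription factors of the heart, and their transcripts were measured in the left atrium and left ventricle of dogs after the removal of a kidney. The 5 genes were chosen by symbol: every probe set whose only gene symbol in the supplied annotation was one of these names was taken, which gave 12 of the 43035 probe sets on the array, and 5 of 15115 genes with such a probe set. NR2F1 had 2 probe sets, TOX 1, IRX5 2, GATA6 2 and MEF2C 5. All 20 arrays were used, 5 in each of 4 groups: left atrium after right-sided uninephrectomy (UNX), left atrium after sham operation, left ventricle after UNX and left ventricle after sham operation. The dogs are described as normal, 6 were assigned to each operation, and tissue was taken 12 weeks later. Each array held 1 tissue sample with no technical replicate. The labels give neither breed, age nor sex, and do not say whether atrial and ventricular arrays with the same number came from the same dog.

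Atrial and ventricular muscle cells keep different gene programmes that are set up in the embryo. NR2F1 (COUP-TFI) is an orphan nuclear receptor whose family is known from mouse and from human stem-cell-derived cardiomyocytes for roles in atrial identity. IRX5 is an Iroquois homeobox repressor, known in the mouse ventricle for shaping the gradient of repolarization across the wall. TOX carries an HMG box and is known mostly for its role in developing and exhausted T cells. GATA6 is a zinc finger activator of cardiac genes that acts beside GATA4, and MEF2C is a MADS-box activator of muscle genes that is restrained by class IIa histone deacetylases.

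All levels are log2 signals as the authors deposited them, and a difference of 1 is a doubling. Of the 12 probe sets, 10 were tested and 2 were not, because their means over all arrays lay under 1.87, the bound below which the dimmest 30% of probe sets fell. The untested ones were a GATA6 probe set with values between 1.32 and 1.54 and a MEF2C probe set between 1.52 and 2.07. Probe sets of a gene are numbered here from the highest mean signal, and the plot of UNX effects gives the array's own identifiers. Differences were tested with limma in a fit over all 30047 tested probe sets, and a probe set was called when its Benjamini-Hochberg adjusted p was under 0.05. Unless another setting is named, each standard error (SE), confidence interval and adjusted p below comes from that fit. It used n = 5 arrays per group. In bulk tissue fewer cells of a type and less RNA per cell cannot be told apart.

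The chamber labels were checked with marker genes before the factors were read. Of 9 tested atrial markers 6 were called higher in the atrium and 0 lower after UNX, and the counts were the same in sham dogs. Among them, MYL7, the atrial regulatory light chain, differed by 2.44 after UNX and 2.02 in sham dogs, and KCNJ3, a subunit of the acetylcholine-gated potassium channel, by 3.21 and 2.84. Of 4 tested ventricular markers 3 were called lower in the atrium under both operations. Over all 11423 genes 16.2% were called higher and 13.7% lower after UNX, and 12% and 10.8% in sham dogs. MYL2, the ventricular regulatory light chain, differed by -9.83 after UNX and -10.85 in sham dogs. NPPA, SLN and HEY2 had no probe set with a single symbol, and IRX4 lay below the filter. The array medians lay between 2.33 and 2.39, and the correlation of any pair of arrays over all probe sets was between 0.972 and 0.996.

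By their brightest probe sets NR2F1, TOX and IRX5 each separated the chambers on every array, while GATA6 and MEF2C were measured in both and their chambers overlapped after UNX. NR2F1 and TOX were high in the atrium and IRX5 in the ventricle, under both operations. The genes were proposed with earlier results of these arrays known, so these differences describe the genes and are not independent evidence for the choice.

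**Figure D1:**
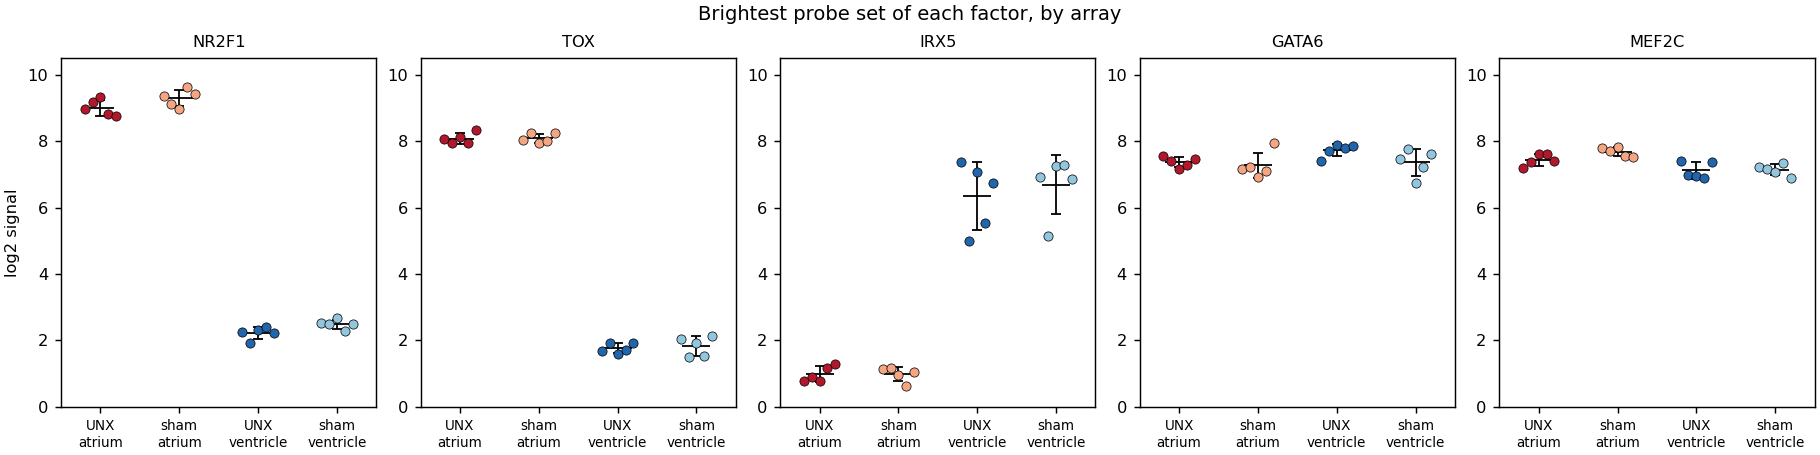
Log2 signal of the brightest probe set of NR2F1, TOX, IRX5, GATA6 and MEF2C on each of the 20 arrays, for uninephrectomized (UNX) and sham atrium and UNX and sham ventricle. Points are arrays, horizontal lines are group means and bars 1 SD (n = 5 arrays per group). NR2F1 and TOX lay at 7.93 or more on every atrial array and at 2.67 or less on every ventricular array, IRX5 ran the other way, and the chambers overlapped for GATA6 under both operations and for MEF2C after UNX.

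NR2F1 was bright in the atrium by its first probe set. UNX atria had 8.97, 9.19, 9.32, 8.81 and 8.75, and sham atria had 9.35, 9.12, 8.98, 9.63 and 9.42. UNX ventricles had 2.26, 1.91, 2.30, 2.39 and 2.23, and sham ventricles had 2.51, 2.48, 2.67, 2.28 and 2.49. No ventricular array came near an atrial one, and the 10 ventricular values lay near the array medians. The atrial excess was 6.79 after UNX (SE 0.13, 110-fold, limma adjusted p = 1.06e-17) and 6.81 in sham dogs (SE 0.13, 112-fold, adjusted p = 9.87e-18). Among 11423 genes, each by its brightest tested probe set, 6 had a larger positive difference after UNX and 3 in sham dogs.

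The second NR2F1 probe set was dim and showed the same order. It averaged 2.83 ± 0.51 in UNX atria and 3.06 ± 0.44 in sham atria, and 1.98 ± 0.17 in UNX ventricles and 2.04 ± 0.11 in sham ventricles (SD, n = 5 each). The atrial excess was called under both operations, at 0.85 after UNX (adjusted p = 0.00525) and 1.02 in sham dogs (adjusted p = 0.00176). The chambers' arrays overlapped after UNX and did not in sham dogs. The pair of NR2F1 probe sets deviated from the group means together, with a Pearson r of 0.70 over the 20 arrays.

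TOX, measured by a single probe set, had less atrial spread than the first NR2F1 probe set. UNX atria had 8.07, 7.93, 8.11, 7.93 and 8.33, and sham atria had 8.03, 8.23, 7.95, 7.99 and 8.23. UNX ventricles had 1.68, 1.91, 1.60, 1.72 and 1.92, and sham ventricles had 2.05, 1.49, 1.91, 1.52 and 2.14. The group SDs in the atrium were 0.17 after UNX and 0.13 in sham dogs. The atrial excess was 6.31 after UNX (SE 0.12, 79.2-fold, limma adjusted p = 1.09e-17) and 6.26 in sham dogs (SE 0.12, 76.8-fold, adjusted p = 1.24e-17).

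Because TOX is best known from T cells, T lymphocyte markers were set beside it. CD3D, CD3E, CD3G and LCK, which define these cells, lay below the filter, and TRAC had no probe set with a single symbol. The 3 tested markers were CD2, CD8A and CD5, and 0 of 3 were called between the chambers under either operation, where 29.9% of all genes were called after UNX and 22.8% in sham dogs, so that a count of 0 among 3 says little. Their mean level was 2.92 in UNX atria, with a range of 2.33 to 3.99, and 3.18 in sham atria, with a range of 2.39 to 4.20. It was 2.64 in UNX ventricles, with a range of 2.42 to 3.20, and 2.87 in sham ventricles, with a range of 2.41 to 3.60. These ranges overlapped in every pair of groups, and the part of T cells in the TOX difference was not tested.

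IRX5 was the ventricular counterpart, by its first probe set. UNX atria had 0.78, 0.91, 0.78, 1.16 and 1.29, and sham atria had 1.15, 1.17, 0.96, 0.62 and 1.04. UNX ventricles had 7.36, 4.99, 7.08, 5.54 and 6.73, and sham ventricles had 6.93, 5.14, 7.24, 7.28 and 6.87. All atrial values lay at the bottom of the scale, whose lowest value in the file was 0.435. The atrium was lower by 41.0-fold after UNX (log2 difference -5.36, SE 0.41, limma adjusted p = 2.12e-08) and by 52.1-fold in sham dogs (-5.70, SE 0.41, adjusted p = 1.04e-08).

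The second IRX5 probe set was dim and also did not overlap between the chambers. It averaged 1.73 ± 0.09 in UNX atria and 1.79 ± 0.15 in sham atria, against 2.26 ± 0.16 in UNX ventricles and 2.19 ± 0.06 in sham ventricles (SD, n = 5 each). The differences were -0.54 after UNX (adjusted p = 6.41e-05) and -0.40 in sham dogs (adjusted p = 0.00131). The first probe set has the array suffix _s_at, which marks probes that can match several transcripts. Whether they match a transcript of another Iroquois gene was not tested, since probe sequences were not used here.

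The TOX and IRX5 folds shrank when a floor was put under the dim side of the comparison. The ventricular NR2F1 values already lay near the array medians, so such a floor could hardly change the NR2F1 fold. With every signal below its array's median raised to that median, a setting chosen after seeing the data, the NR2F1 difference was 6.64 (99.8-fold) after UNX and 6.80 (111-fold) in sham dogs. TOX then gave 5.72 (52.7-fold) after UNX and 5.73 (53.0-fold) in sham dogs. IRX5 gave -4.00 after UNX and -4.34 (20.3-fold) in sham dogs. The IRX5 fold moved by more than 2 times under this setting, and its direction did not turn.

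MEF2C was measured by 4 tested probe sets, and all 4 had a higher mean in the atrium under both operations. Its dim, untested probe set went the other way in a limma fit without the filter. There it differed by -0.08 after UNX (adjusted p = 0.475) and -0.20 in sham dogs (adjusted p = 0.0517). On the first probe set, UNX atria had 7.20, 7.37, 7.62, 7.60 and 7.40, and sham atria had 7.78, 7.71, 7.81, 7.56 and 7.52. UNX ventricles had 7.41, 6.97, 6.96, 6.89 and 7.37, and sham ventricles had 7.23, 7.16, 7.08, 7.35 and 6.90. The sham atria all lay above the sham ventricles, while the chambers overlapped after UNX. The excess was 0.53 in sham dogs (SE 0.11, 1.45-fold, limma adjusted p = 0.00253) and 0.32 after UNX (SE 0.11, 1.25-fold, adjusted p = 0.0465). The call after UNX was lost in 6 other settings, with adjusted p up to 0.156 under quantile normalization, and without any single one of 13 arrays. These were UNX atria 2 to 5, UNX ventricles 2 to 4, sham atria 1, 2 and 4, and sham ventricles 1 to 3, with the highest adjusted p, 0.122, without UNX ventricle 4.

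The other tested MEF2C probe sets gave differences of the same sign with wider spread. The second had 7.17, 7.33, 7.54, 7.12 and 6.67 in UNX atria against 7.06, 6.36, 6.02, 5.98 and 6.65 in UNX ventricles, a difference of 0.76 (SE 0.29, limma adjusted p = 0.0598). The same probe set had 7.86, 7.45, 7.58, 7.61 and 6.97 in sham atria against 7.28, 6.79, 6.70, 6.24 and 5.34 in sham ventricles, a difference of 1.02 (adjusted p = 0.0160) that was called. It missed the threshold in a fit of the sham arrays alone (adjusted p = 0.0502), and the UNX difference passed it in a fit of the UNX arrays alone (adjusted p = 0.0284). The UNX difference was also called without UNX atrium 5 (adjusted p = 0.0417), UNX ventricle 1 (adjusted p = 0.0292), sham ventricle 1 (adjusted p = 0.0415) or sham ventricle 5 (adjusted p = 0.0195). With the array number within each operation as a block it was called too (limma adjusted p = 0.0429). That block joins UNX arrays of the same number, which were not taken as paired.

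The third MEF2C probe set differed by 0.52 after UNX (adjusted p = 0.150) and 0.70 in sham dogs (adjusted p = 0.0616). With sham arrays of the same number kept as a block, the sham difference was called (adjusted p = 0.0249), as it was without sham atrium 3 (adjusted p = 0.0372) or sham ventricle 1 (adjusted p = 0.0178). The fourth differed by 0.28 after UNX (adjusted p = 0.505) and 0.53 in sham dogs (adjusted p = 0.205). The mean of the 4 probe sets was 0.47 higher in the atrium after UNX (adjusted p = 0.0469) and 0.70 higher in sham dogs (adjusted p = 0.00607).

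The MEF2C probe sets fell into pairs by how they varied within groups. Deviations of the first and second from the group means went together over the 20 arrays (r = 0.62), as did those of the third and the fourth (r = 0.64). Between the first and the fourth the r was -0.17. The third and the fourth also moved with a measure of RNA quality, the log2 gap of 3' over middle and 5' signals averaged for 3 control transcripts (ACTB, GAPDH, EEF1A), with r of -0.74 and -0.79, where the first and second had 0.20 and -0.20. The gap averaged 1.10 ± 0.26 in UNX atria and 1.19 ± 0.19 in sham atria, and 1.14 ± 0.15 in UNX ventricles and 1.42 ± 0.27 in sham ventricles (SD, n = 5 each). With the gap as a covariate the sham chamber difference of the third was 0.37 (adjusted p = 0.203) and that of the fourth 0.14 (adjusted p = 0.682), while those of the first and second were called at 0.57 and 0.92.

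**Figure D2:**
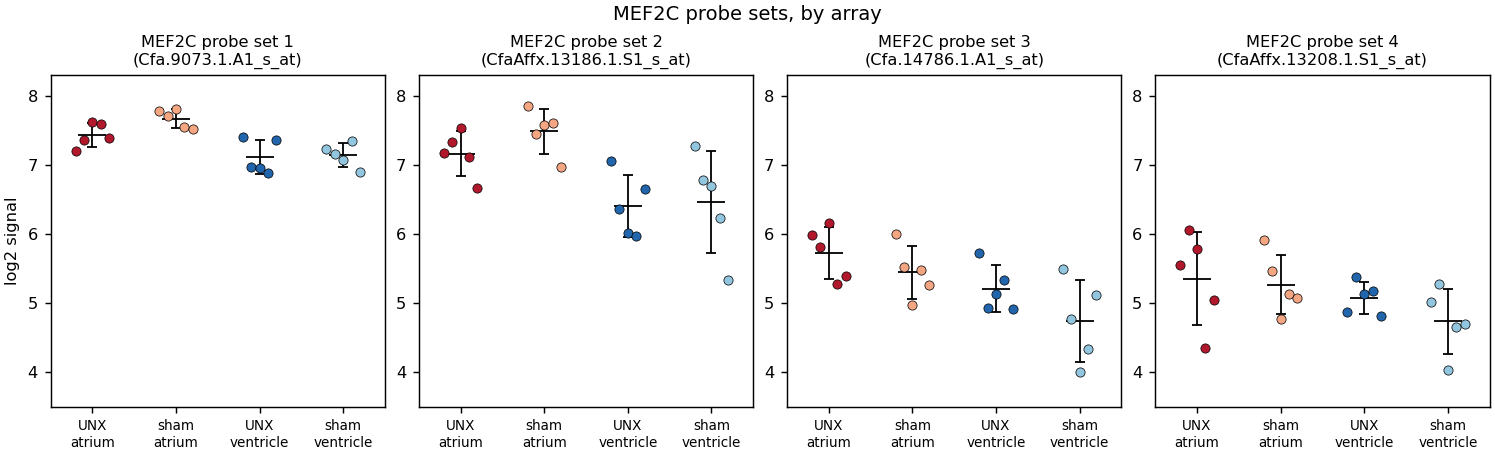
Log2 signal of the 4 tested MEF2C probe sets on each array, in the same group order and with group means and SD bars (n = 5 arrays per group). The vertical axis starts at 3.5. All 4 had higher means in atrium than in ventricle, without overlap only for the first in sham dogs. The second and the 2 dimmer ones on the right spread over more than 1 unit within some groups. The widest was the second in sham ventricles, from 5.34 to 7.28.

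GATA6 gave no call between the chambers. On its tested probe set UNX atria had 7.54, 7.41, 7.15, 7.27 and 7.47, and sham atria had 7.15, 7.23, 6.92, 7.11 and 7.93. UNX ventricles had 7.41, 7.71, 7.87, 7.78 and 7.85, and sham ventricles had 7.46, 7.75, 6.73, 7.22 and 7.61. All groups overlapped. The chamber difference was -0.35 after UNX (95% confidence interval -0.74 to 0.03, limma adjusted p = 0.161) and -0.09 in sham dogs (-0.47 to 0.29, adjusted p = 0.788). A fit of the UNX arrays alone called the first (adjusted p = 0.0297). These intervals do not show that the chambers are alike.

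Over the 5 genes, 6 of 10 tested probe sets were called between the chambers after UNX and 7 of 10 in sham dogs, where 27.3% and 20.8% of all 30047 tested probe sets were called. After UNX 4 were higher and 2 lower in the atrium, against 14.7% and 12.5% of all tested probe sets, and in sham dogs 5 were higher and 2 lower, against 11.2% and 9.62%. TOX and both IRX5 probe sets had group means under 1.87 in their low chamber and so passed the filter only through the other, which makes these counts a description. The chambers did not overlap for 4 of the 10 after UNX and 6 of the 10 in sham dogs, against 21% and 14.3% of all tested probe sets. The chamber difference itself did not change detectably with the operation for any probe set of the 5 genes, with adjusted p of 1.00 throughout. For NR2F1 the UNX chamber difference minus the sham one was -0.03 (95% confidence interval -0.41 to 0.35), for TOX 0.04 (-0.32 to 0.40) and for IRX5 0.35 (-0.87 to 1.56).

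Relatives of the 5 factors were read from family lists, each gene by its brightest probe set. All 3 tested NR2F receptors, NR2F1 included, were called higher in the atrium under both operations, as were 16.2% of 11423 genes after UNX and 12% in sham dogs. NR2F1 was chosen with earlier results known, so this count describes the list and is not evidence about it. NR2F2 (COUP-TFII), the receptor most tied to atrial identity in mouse, averaged 5.49 in UNX atria against 4.28 in UNX ventricles, and 5.93 in sham atria against 4.74 in sham ventricles. Its differences were 1.21 after UNX and 1.19 in sham dogs, and those of NR2F6 were 0.82 and 0.85. Their other probe sets, 2 of NR2F2 and 1 of NR2F6, were called in the same direction. NR2F2 also stands in the list of atrial markers.

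All 3 tested Iroquois factors, IRX5 included, were called lower in the atrium under both operations, as were 13.7% of genes after UNX and 10.8% in sham dogs. IRX5 was chosen with earlier results known and passed the filter only through the ventricle. The count therefore describes the list and is not evidence about it. IRX3, which in mouse acts in the ventricular conduction system, averaged 2.89 in UNX atria against 5.96 in UNX ventricles, and 2.90 in sham atria against 5.87 in sham ventricles. Its differences were -3.06 after UNX (SE 0.61, adjusted p = 0.000991) and -2.97 in sham dogs (SE 0.61, adjusted p = 0.00172). IRX2 differed by -0.76 after UNX and -1.16 in sham dogs at dim levels. IRX4, the Iroquois factor best known as ventricular, lay below the filter with group means between 1.63 and 1.94, IRX6 was below it too, and IRX1 had no probe set with a single symbol.

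The relatives of TOX, GATA6 and MEF2C gave few calls. TOX4, the only other TOX factor above the filter, differed by 0.11 after UNX and -0.02 in sham dogs and was called in neither. GATA1, GATA3 and the GATA cofactor ZFPM2 were not called, and GATA2, GATA4 and GATA5 lay below the filter. MEF2A was called higher in the atrium after UNX (0.34, adjusted p = 0.0211) and not in sham dogs (0.21, adjusted p = 0.159). Another of its 4 tested probe sets was called under both operations (0.59 after UNX and 0.70 in sham dogs), and 2 under neither. Of 11 other tested cardiac factors, among them NKX2-5, TBX20 and HAND2, TEAD1 was called lower in the atrium after UNX (-0.41, adjusted p = 0.0291) and 0 of 11 were called in sham dogs. Of 5 tested kinases, deacetylases and cofactors that act on MEF2 proteins, 0 were called. The share called over all 11423 genes was 29.9% after UNX and 22.8% in sham dogs.

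**Figure D3:**
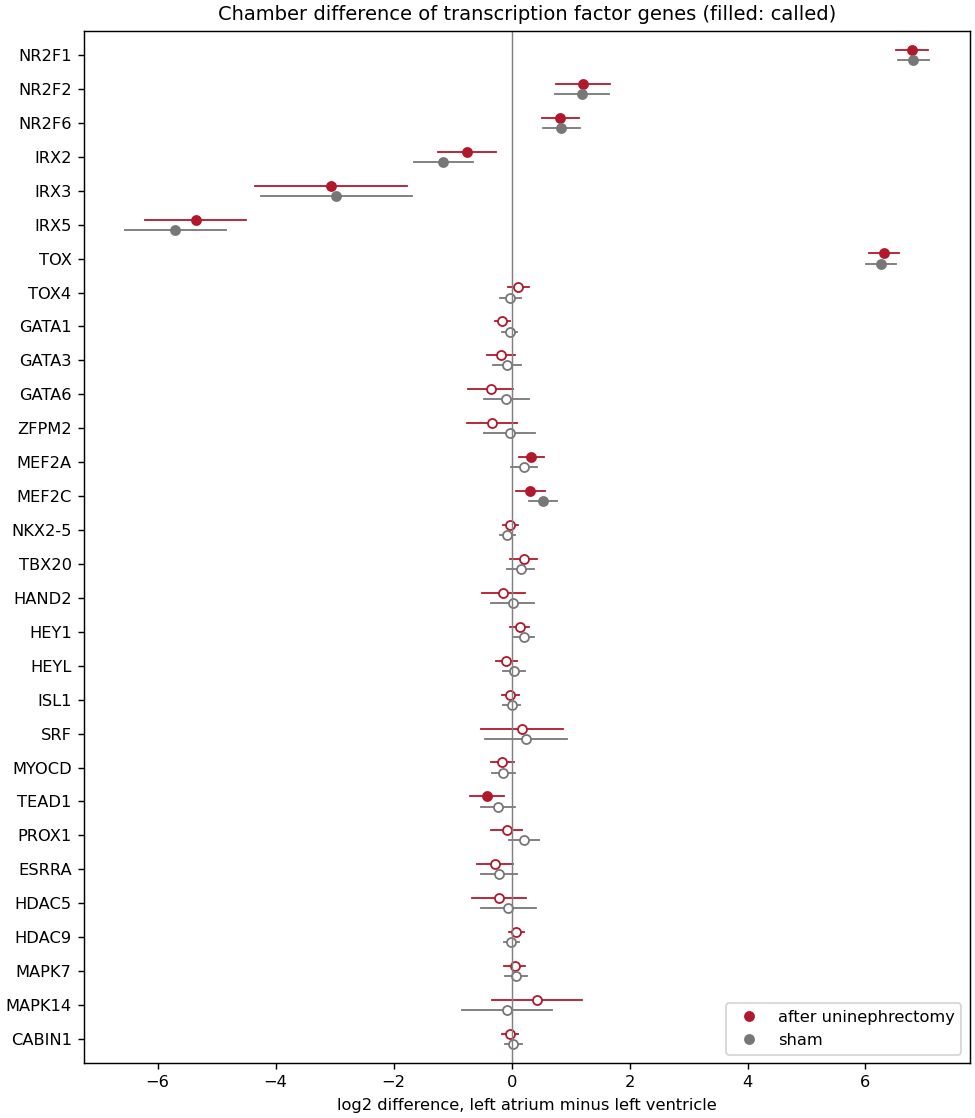
Log2 difference, left atrium minus left ventricle, of the tested transcription factor genes and MEF2 regulators after uninephrectomy (red) and in sham dogs (grey), with 95% confidence intervals from limma; filled points are called. NR2F1 and TOX lay above 6 and IRX5 below -5, IRX3 near -3, and most other factors within 1 unit of 0.

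Markers of fibroblasts, of smooth muscle cells and pericytes, and of adipocytes had higher mean levels in the atrium, as NR2F1, TOX and MEF2C did. Of 7 tested fibroblast markers 6 were called higher in the atrium after UNX and 5 in sham dogs, with median differences of 1.58 and 1.35. Their mean level was 10.2 in UNX atria (range 9.94 to 10.7) and 9.80 in sham atria (9.17 to 10.4), and 8.76 in UNX ventricles (8.38 to 9.02) and 8.63 in sham ventricles (8.41 to 8.92). Of 6 smooth muscle and pericyte markers 4 were called higher and 1 lower after UNX, and 3 higher in sham dogs, with mean levels of 7.93 in UNX atria and 7.82 in sham atria against 6.96 and 6.97 in UNX and sham ventricles. Among 6 adipocyte markers 1 was called higher after UNX and 3 in sham dogs, and 4 had a positive difference under each operation. Their mean level was 5.69 in UNX atria and 6.01 in sham atria, against 4.96 and 5.01 in UNX and sham ventricles. Of 7 cardiomyocyte markers 4 were called lower in the atrium under both operations, with medians of -0.30 after UNX and -0.24 in sham dogs. Of 8 endothelial markers 0 were called higher, and 1 was called lower after UNX and 3 in sham dogs; over all genes 16.2% were called higher and 13.7% lower after UNX, and 12% higher and 10.8% lower in sham dogs, so that the endothelial count after UNX lay near the share over all genes. The part of these cell types in the differences of NR2F1, TOX, IRX5 and MEF2C was not tested.

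Within the ventricle IRX5 was uneven from array to array, and a few other genes were low on the same arrays. IRX5 was at 4.99 and 5.54 in UNX ventricles 2 and 4 and at 5.14 in sham ventricle 2, and between 6.73 and 7.36 on the other 7. IRX3 had 6.92, 4.07, 7.27, 4.54 and 6.99 in UNX ventricles and 5.12, 3.96, 7.27, 7.17 and 5.82 in sham ventricles. MYL4, the atrial essential light chain, had 9.97, 3.66, 10.30, 5.53 and 7.30 in UNX ventricles and 9.91, 4.69, 9.60, 10.09 and 7.98 in sham ventricles. PHKA2, a regulatory subunit of phosphorylase kinase, had 7.51, 5.57, 7.81, 5.67 and 6.91 in UNX ventricles and 6.79, 5.12, 8.07, 7.26 and 6.86 in sham ventricles. All 3 genes had their lowest values on the 3 arrays where IRX5 was lowest. They were picked for their likeness to IRX5 over these arrays, so this describes the choice and is not separate evidence.

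These were the genes whose deviations from the 4 group means were most like those of IRX5 over the 20 arrays, out of 11422: MYL4 (r = 0.94), IRX3 (r = 0.90) and PHKA2 (r = 0.88). The likeness rests mainly on the 10 ventricular arrays, where these genes spread most, and the arrays share their normalization. MYL4 ran with IRX5 inside the ventricle although its level was far higher in the atrium, at 14.23 after UNX and 14.33 in sham dogs. The second IRX5 probe set, whose deviations followed the first with r = 0.55, also had its lowest UNX ventricular value, 2.02, on array 2. The mean of the 9 atrial markers, MYL4 among them, was 4.83 and 5.00 on UNX ventricles 2 and 4 and 5.07 on sham ventricle 2, and between 5.43 and 6.17 on the other ventricular arrays. MYL4 was itself low on those arrays and lowers this mean there, and a mean without MYL4 was not computed. MYL7, another atrial marker, had 11.55 and 11.99 on UNX ventricles 2 and 4 and 12.73 on sham ventricle 2. Whether MYL7 followed IRX5 over the ventricular arrays was not tested. The ventricular marker mean on those 3 arrays was 12.93, 12.96 and 12.74, inside or just above the range of the others, 12.41 to 12.86. The 3' gap was 1.23, 1.04 and 1.25 on them, within the range of the other ventricular arrays, 0.94 to 1.83.

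**Figure D4:**
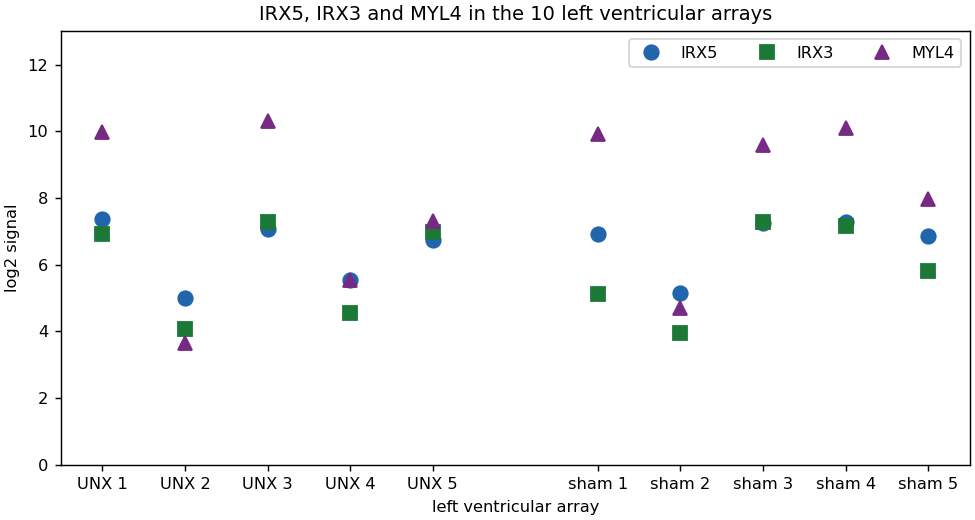
Log2 signal of IRX5, IRX3 and MYL4 on the 10 left ventricular arrays, 5 after uninephrectomy (UNX) and 5 after sham operation; each symbol is 1 array and numbers only name arrays. All 3 genes were lowest on UNX 2, UNX 4 and sham 2, where IRX5 lay at 5.54 or less. IRX3 and MYL4 were picked for their likeness to IRX5.

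The genes most like NR2F1 and TOX over all 20 arrays were chamber genes. For NR2F1 they were CTNNA2 (r = 0.997), TOX (r = 0.996) and PAM (r = 0.995), and the most opposed were ANKRD23 (r = -0.991), MPPED2 (r = -0.988) and MYL2 (r = -0.983). For TOX they were CTNNA2 (r = 0.998), NR2F1 (r = 0.996) and PAM (r = 0.996), and the most opposed were MPPED2 (r = -0.990), MAPT (r = -0.985) and MYL2 (r = -0.985). CTNNA2 encodes a catenin of cell contacts, and PAM the enzyme that amidates peptides and is abundant in atrial granules. Such values rest on the split into 2 chambers: once the group means were removed, NR2F1 and TOX had r = -0.06. Within groups NR2F1 went most with PTGFRN (r = 0.79), DDIT4L (r = 0.78) and TLN1 (r = 0.77), and TOX with PVR (r = 0.79), NLRP14 (r = 0.75) and LOC486026 (r = 0.73). These are the highest of 11422 genes, and how high an r chance alone would give was not computed. The ventricular TOX values and the group means of PVR lay below the array medians.

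IRX5 was most like MID2 (r = 0.971), UXT (r = 0.968) and MAPT (r = 0.965) over the 20 arrays, and most opposed to RABGAP1L (r = -0.986), GNAO1 (r = -0.981) and TOX (r = -0.971). UXT, a prefoldin-like protein, shows how a small difference can give a high r, with 8.32 in UNX atria and sham atria against 9.06 in UNX ventricles and 9.07 in sham ventricles. MEF2C was most like PURA (r = 0.886), HELZ (r = 0.883) and NSRP1 (r = 0.877), and most opposed to CHCHD3 (r = -0.884), C10H2orf42 (r = -0.851) and MTOR (r = -0.850). Within groups it went with SLC29A1 (r = 0.81), ITGA6 (r = 0.80) and THOC2 (r = 0.78). GATA6 had no partner as close, with BEND7 (r = 0.803), IER3 (r = 0.794) and DLA-64 (r = 0.793) nearest and HSF2 (r = -0.802), CISD2 (r = -0.794) and CRLF3 (r = -0.782) most opposed. Within groups it went with BEND7 (r = 0.83), DACT3 (r = 0.83) and SLC39A6 (r = 0.81). The partners of MEF2C and GATA6 are likewise the highest of 11422 genes, with no chance level computed.

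Neighbouring genes were named from the RefSeq table of the wolf assembly mCanLup2.hap1, which is not known to be the build of the array design, so only gene order was used. IRX5 lay between IRX6, below the filter, and IRX3, which was lower in the atrium like IRX5. Beyond them, MMP2, a matrix metalloproteinase, was higher in the atrium, by 1.59 after UNX (adjusted p = 0.00119) and 0.99 in sham dogs (adjusted p = 0.0364), and FTO was called under neither operation. Beside TOX, CA8 and RAB2A were not called, and NSMAF differed by 0.33 after UNX (adjusted p = 0.0192) and 0.13 in sham dogs (adjusted p = 0.408). Near NR2F1, ARRDC3 differed by 1.45 after UNX (adjusted p = 0.00811) and 0.54 in sham dogs (adjusted p = 0.355). Beside MEF2C, CETN3 was called higher in the atrium under both operations, by 0.42 after UNX and 0.32 in sham dogs, and TMEM161B and CCNH were not called. Of the GATA6 neighbours, RBBP8 was called after UNX (0.54, adjusted p = 0.00312) and not in sham dogs, and MIB1 and ABHD3 were not called. Over all genes 29.9% were called after UNX and 22.8% in sham dogs, so single calls near a member are not read as a feature of its locus. Any link between members and neighbours was not tested.

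Uninephrectomy changed none of the 5 genes detectably in either chamber. Of 10 tested probe sets 0 were called in the atrium, 0 in the ventricle and 0 for the difference between the chambers' responses, and limma called 0% of all 30047 probe sets in each of these comparisons. At an unadjusted p under 0.05, 2010 probe sets (6.69%) passed in the atrium, 2005 (6.67%) in the ventricle and 893 (2.97%) for the difference. UNX and sham arrays overlapped for all 10 tested probe sets in both chambers, where 0.929% of tested probe sets did not overlap in the atrium and 0.992% in the ventricle. The comparisons within a chamber and between chambers use the same arrays.

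NR2F1 had a lower mean after UNX in both chambers, and neither difference was called. In the atrium its first probe set differed by -0.29 (95% confidence interval -0.56 to -0.02, limma adjusted p = 0.730), with UNX atria between 8.75 and 9.32 and sham atria between 8.98 and 9.63. In the ventricle, where its signal was near the array medians, the difference was -0.27 (-0.54 to 0.00, adjusted p = 0.747). The dim second NR2F1 probe set differed by -0.23 in the atrium (-0.67 to 0.21) and by -0.06 in the ventricle (-0.50 to 0.38). NR2F2 and NR2F6 also had negative differences in both chambers, and 0 of the 3 receptors were called. Deviations of the first NR2F1 probe set moved with the 3' gap (r = -0.47 over 20 arrays). With the gap as a covariate its atrial difference was -0.33 (limma adjusted p = 0.610).

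TOX gave values near 0, with -0.01 in the atrium (95% confidence interval -0.27 to 0.24) and -0.06 in the ventricle (-0.31 to 0.20). The first IRX5 probe set gave the widest intervals. Its ventricular difference was -0.35 (-1.21 to 0.51, limma adjusted p = 0.896), and leaving out single arrays moved it from -0.74 without sham ventricle 2 to -0.01 without UNX ventricle 2, so this value rests on the uneven arrays described above. In the atrium, where IRX5 was at the bottom of the scale, it was -0.00 (-0.86 to 0.85).

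GATA6 differed by 0.37 in the ventricle (95% confidence interval -0.01 to 0.75, limma adjusted p = 0.748) and by 0.10 in the atrium (-0.28 to 0.48). UNX ventricles lay between 7.41 and 7.87 and sham ventricles between 6.73 and 7.75, and the lowest sham value was on array 3, which also had the largest 3' gap, 1.83. With the gap as a covariate the ventricular difference was 0.20, and without sham ventricle 3 it was 0.21. MEF2C had differences of both signs. In the atrium its first probe set differed by -0.24 (-0.48 to 0.00, adjusted p = 0.753) and its second by -0.33, whereas the third differed by 0.28 and the fourth by 0.09. In the ventricle the first and second differed by -0.02 and -0.06, the third by 0.47 (-0.08 to 1.01) and the fourth by 0.34 (-0.26 to 0.93). With the gap as a covariate the third gave 0.06 and the fourth -0.14.

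**Figure D5:**
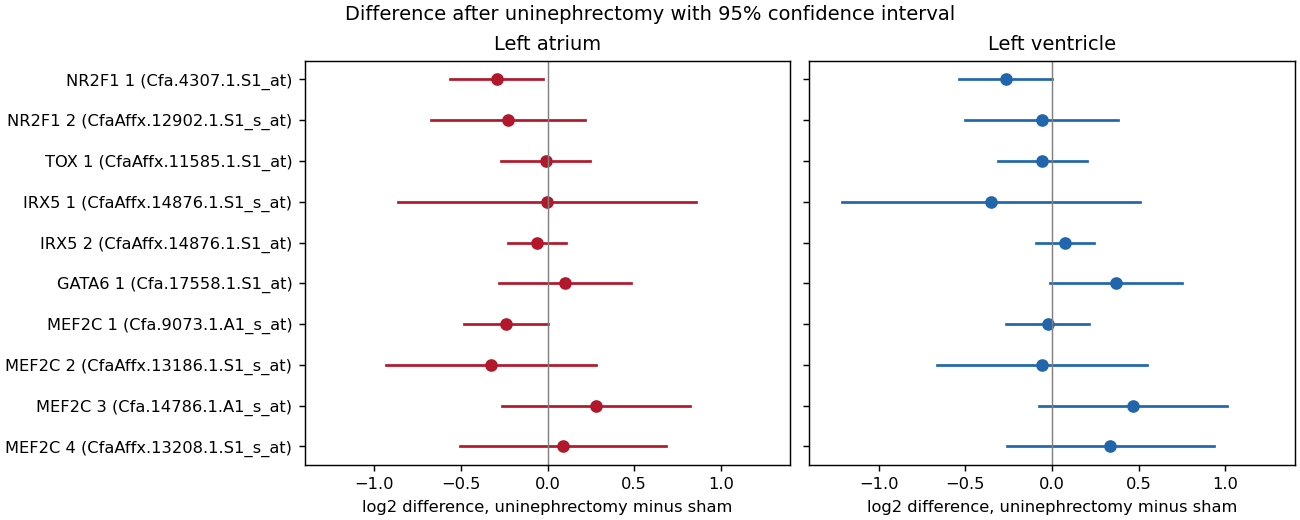
Log2 difference, uninephrectomy minus sham, of the 10 tested probe sets of the 5 genes in left atrium and left ventricle, with 95% confidence intervals from limma (n = 5 arrays per group) and the array's identifiers. NR2F1 in the atrium is the only interval that ends below 0, and none was called after adjustment over all 30047 probe sets.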

How the data were processed

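The deposited values are log2 probe set signals of 20 Affymetrix canine arrays. Their summarization and normalization by the authors are not given in the sources used here. Per the labels' protocols, RNA was extracted with Trizol and 100 ng was labelled by IVT Express. No scan files or detection calls were used, and array number limits precision. Symbols came from the supplied annotation, which gives 29264 probe sets 1 symbol and 439 several and does not list 13332.

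After 111 controls and the 30% of probe sets with the lowest means were left out, 30047 entered lmFit and eBayes of limma 3.58.1 (R 4.3.3, two-sided), with a mean per group, 16 residual degrees of freedom and Benjamini-Hochberg adjustment over all of them. The method was tested on simulated data whose arrays were independent, so that test says nothing about arrays that share a dog. The labels do not name the animal of each array, so p-values measure the spread between these samples.

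The members and lists were chosen with earlier results of these data known. Named were all member probe sets, all genes of the transcription factor lists by their brightest probe set, and per member the 3 genes with the highest and the 3 with the lowest Pearson r of log2 signal over 20 arrays and the 3 with the highest r of deviations from the group means; marker genes were read as lists. The lists for macrophages, adipocytes, lymphatic endothelium, epicardium and Schwann cells were also read. After UNX 1 of 7 macrophage and 1 of 6 adipocyte markers were called higher in the atrium, and 0 of 7 and 3 of 6 in sham dogs. Of 4 lymphatic and venous markers 0 were called after UNX and 1 lower in sham dogs. For epicardial markers 0 of 1 were called, and for Schwann and neuronal markers 0 of 3. Over all genes 16.2% were called higher and 13.7% lower after UNX, and 12% and 10.8% in sham dogs. The macrophage and adipocyte counts after UNX lay near that share, and counts in lists this small say little. Neighbours of the members were added after the data were seen.

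Array numbers were checked for pairing before blocked fits were compared. Atrial and ventricular sham arrays of the same number had deviations from the group means that correlated at 0.463, 0.226, 0.373, 0.295 and 0.209, so they were taken as paired, from the data and not the labels. UNX arrays had -0.061, -0.069, 0.115, -0.235 and 0.097 and were not. With ventricular arrays of other numbers, the highest r of the UNX atria was 0.437, 0.323, 0.167, 0.536 and 0.298. For the sham atria it was 0.043, 0.090, 0.072, -0.014 and -0.004. Whether UNX chambers share dogs under different numbers was not tested. The main fit takes all arrays as independent and ignores any such pairing. Alternatives covered filters, normalization, fit, blocks, the 3' gap and single arrays left out.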

Additional observations from a re-analysis of the deposited data

Results flagged for a closer look

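Each of the 10 tested probe sets was checked in each of the 4 groups of 5 arrays for a value far from the rest, 40 checks in which chance alone gives about 1 in 20. Of these, 2 stood out, which is the number chance would give. On the first IRX5 probe set, sham ventricle 2 had 5.14 where the other sham ventricles had 6.87 to 7.28. UNX ventricles 2 and 4, at 4.99 and 5.54, were as low but did not stand apart within their own group. On the second, dim IRX5 probe set, sham atrium 5 had 1.53 where the other sham atria had 1.79 to 1.90, all below the array medians.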

How the results depend on the processing

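The members called between the chambers numbered 4 to 7 after UNX and 4 to 8 in sham dogs over the planned settings, against 6 and 7. The value of 4 came from averaging the tested probe sets of a gene, which leaves 5 genes to call; NR2F1, TOX, IRX5 and MEF2C were those 4 in both. Leaving out single arrays gave 5 to 7 after UNX and 7 to 8 in sham dogs. The member counts for UNX against sham were 0 in all settings run. With the number as a replicate block the member counts were 7 (both operations blocked), 6 (sham arrays blocked) and 6 (number over all groups) after UNX and 8 in sham dogs in each; the added sham call was the third MEF2C probe set, and the block over all groups moved the first MEF2C probe set after UNX to an adjusted p of 0.0756. All probe sets called ranged from 6868 to 9070 after UNX and from 4999 to 8030 in sham dogs, and single arrays left out gave at most 1 probe set for UNX in the atrium (without sham atrium 5) and 4 in the ventricle (without sham ventricle 1).

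Of 1555 values of single probe sets under alternatives 1473 kept direction and side of the threshold, 20 lost and 15 gained a call, and 47 turned sign. All that turned were differences that were not called. In the atrium, UNX minus sham turned to 0.013 (array weights) and 0.0048 (3' gap) for TOX, to 0.0067 (arrays shifted to the same median) and 0.063 (gap) for the first IRX5 probe set and to -0.064 (gap) for the fourth MEF2C probe set. In the ventricle it turned to 0.023 (gap) and 0.18 (mean of probe sets) for the first MEF2C probe set and to -0.14 (gap) for the fourth. The difference of these effects turned with the gap to 0.058 for the first NR2F1 probe set, 0.094 for the third MEF2C probe set and 0.078 for the fourth. The cause was not tested.

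With single arrays left out, UNX minus sham in the atrium ran from -0.076 to 0.026 for TOX, from -0.096 to 0.047 for the first IRX5 probe set and from -0.088 to 0.34 for the fourth MEF2C probe set. In the ventricle it ran from -0.14 to 0.025 for TOX, from -0.097 to 0.032 for the first MEF2C probe set and from -0.34 to 0.15 for the second. The difference of effects ran from -0.11 to 0.055 for the first NR2F1 probe set, from -0.36 to 0.0062 for the second NR2F1 probe set, from -0.036 to 0.13 for TOX, and from -0.47 to 0.016 and -0.43 to 0.0033 for the second and the fourth MEF2C probe sets. The GATA6 chamber difference in sham dogs ran from -0.25 to 0.0098.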
